A study of Mus musculus with 8 samples.

Results

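The genes described here are the secreted and membrane-bound matrix proteases of the Adamts and Mmp families and the Adamtsl proteins. They were taken as every protein-coding gene of the mm9 annotation whose symbol begins with Adamts, which includes Adamtsl, or is Mmp followed by a number. This gave 47 of 22367 genes, of which 23 were Mmp, 19 Adamts and 5 Adamtsl genes. They lie at 35 loci, counting neighbours within 100 kb of each other as 1 locus.

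Matrix metalloproteases (MMPs) and ADAMTS proteases are zinc enzymes that cut the proteins around cells. MMPs cleave collagens, gelatin, elastin and other matrix proteins, and ADAMTS proteases cleave proteoglycans, procollagens and a few named substrates. ADAMTS-like proteins share the accessory domains of the ADAMTS proteases but lack the catalytic domain. A precursor cell that becomes a fat cell rebuilds its surrounding matrix, and enzymes of these families take part in that remodelling.

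Contact of these genes with the nuclear lamina was read from LaminB1-DamID in 3T3-L1, a mouse fibroblast line that can be differentiated into adipocytes. A methylase, Dam, fused to LaminB1 marks GATC sites close to the nuclear envelope, and Dam alone gives the background. Lamina-associated domains (LADs) are the stretches in which the fusion outweighed Dam. The data are 4 deposited LAD lists, from 8 libraries, with 1 LaminB1-Dam and 1 Dam library in each condition.

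The first list is from untreated, undifferentiated preadipocytes at day 0. The other lists are from day 9 adipocytes, induced with insulin, dexamethasone, IBMX and rosiglitazone. They carried a non-target control shRNA, an shRNA against Tmem120a, or shRNAs against both Tmem120a and Tmem120b. The non-target control is that of the sample labels and of the paper's microarrays, which were run on parallel samples. For knockdown protein levels the paper compares with an empty shRNA vector. Cells with the Tmem120a shRNA alone are called single-knockdown cells, and those with both are called double-knockdown cells. Tmem120a and Tmem120b encode membrane proteins of the nuclear envelope. Dam constructs were delivered to all cells by lentivirus, in adipocytes late in differentiation. No shRNA is named for the preadipocytes, so differentiation, an shRNA vector and the time of transduction cannot be told apart in the first comparison. The remaining deposited lists hold regions in preadipocyte LADs alone, called released here, and regions in adipocyte LADs alone, called recruited here.

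No condition had a replicate, so no difference below has a spread between replicates and none was tested. The lists hold positions only, so neither read depth nor how strong a LAD was can be given, and there are no intervals. They contain no expression values, so neither the identity of the cells nor the knockdown was checked. The preadipocyte list had 3914 LADs with a median length of 83.2 kb, and the adipocyte list had 2542 with a median of 103 kb. The single-knockdown list had 5723 with a median of 59.1 kb and the double-knockdown list 6971 with a median of 60.7 kb. The knockdown lists were thus more finely divided, and the main counts are also given with gaps under 50 kb joined in all lists.

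Of the 47 members 26 (55.3%) met no LAD in any list, against 63.7% of all genes. Those that met one were mainly 1 gene cluster and the longest genes. In preadipocytes 12 of 47 gene bodies (25.5%) met a LAD by at least 1 bp, against 26.2% of all protein-coding genes. In control adipocytes 16 (34%) did, against 23.3%. The single-knockdown list met 16 (34%), against 27.5%, and the double-knockdown list met 14 (29.8%), against 29.5%. The share was thus near that of all genes in preadipocytes and double-knockdown cells, and above it in control adipocytes and single-knockdown cells. The latter rested on 1 gene cluster, the 10 Mmp genes on chromosome 9. Among the 37 genes outside it, bodies in a LAD numbered 7 (18.9%), 6 (16.2%), 9 (24.3%) and 8 (21.6%) in the order of the lists above. The cluster was set apart after seeing the data, and no clusters were taken out of all genes. These shares therefore cannot be set against those of all genes. With LADs of at least 100 kb alone, the lists met 8, 14, 4 and 7 of all 47 members in the same order. With gaps under 50 kb joined, the numbers for all 47 were 12, 16, 17 and 14. The share of all genes was counted under neither alternative, and LADs were shorter in the knockdown lists.

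The start site, the annotated first base, gave a wider range between the lists. In preadipocytes 8 start sites (17%) lay in a LAD, against 23.3% of all genes, and in control adipocytes 14 (29.8%) did, against 21.2%. In the single-knockdown list the number was 11 (23.4%), against 22.6%. In the double-knockdown list it was 8 again (17%), against 23.8%. Outside the Mmp cluster the numbers were 4 (10.8%), 5 (13.5%), 5 (13.5%) and 4 (10.8%) of 37, so both the wider range and the higher share in adipocytes came from the cluster. With LADs of at least 100 kb alone, the lists held 7, 12, 4 and 6 of all 47 start sites in the same order. With gaps joined the numbers for all 47 were 8, 15, 13 and 9. The share of all genes was counted under neither alternative. The 8 genes in preadipocytes and the 8 in double-knockdown cells were not the same, since Mmp12, Mmp3 and Mmp1a belonged to the former alone and Mmp10, Mmp20 and Mmp7 to the latter alone.

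**Figure D1:**
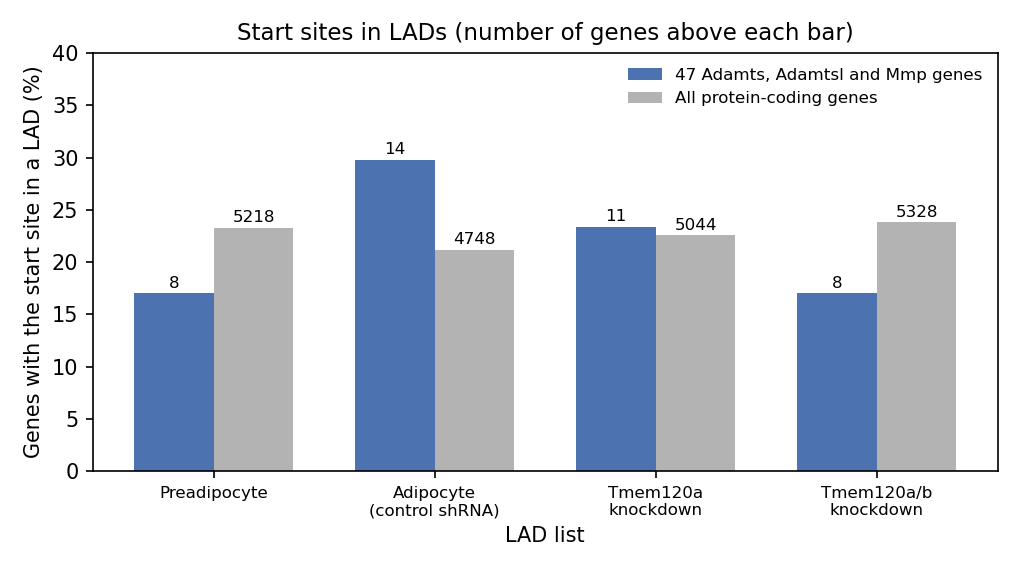
Percentage of genes whose start site lies in a LAD, in each of the 4 LAD lists (x axis), for the 47 Adamts, Adamtsl and Mmp genes and for all 22367 protein-coding genes, with the number of genes above each bar. The proteases stand at 29.8% in control adipocytes and at 17% in preadipocytes and in double-knockdown cells, and the bars of all genes lie between 21.2% and 23.8%. Without the 10 genes of the Mmp cluster, which the bars include, the proteases would stand between 10.8% and 13.5%.

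The difference between preadipocytes and adipocytes lay in one direction for start sites. Of the 47 start sites 6 (12.8%) were in a LAD in adipocytes and not in preadipocytes, against 1.84% of all genes, and these were Mmp16, Mmp10, Mmp8, Mmp27, Mmp20 and Mmp7. None was in a LAD in preadipocytes and not in adipocytes, against 3.94% of all genes. By gene body 6 members (12.8%) met a LAD in adipocytes alone of the 2 lists, against 1.88%, and these were Mmp16, Mmp13, Mmp10, Mmp8, Mmp27 and Mmp7. All but Mmp16 lie in the same cluster, so the 6 genes stand for 2 loci. Adamts2 and Adamts6 (4.26%) met a LAD in preadipocytes and not in adipocytes, against 4.81%. Their contacts covered 8.87% and 10.3% of the body. This number was 0 with at least 50% of the body required and 1 with LADs of at least 100 kb. The number in adipocytes alone was 7 under either rule, for which the share of all genes was not counted.

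The share of each body in LADs gave the same picture with its size. It was at least 25 percentage points higher in adipocytes than in preadipocytes for 9 members (19.1%), against 2.47% of all genes, and at least 25 points lower for 0 members, against 4.60%. The 9 were Mmp16, Adamtsl1, Mmp13, Mmp3, Mmp10, Mmp8, Mmp27, Mmp20 and Mmp7, at 3 loci. In single-knockdown cells 7 members (14.9%) were at least 25 points below control adipocytes, against 2.71%, and 1 (2.13%), Adamts7, was above, against 5.16%. In double-knockdown cells 9 members (19.1%) were below, against 3.09%, and 1 (2.13%), Adamts17, was above, against 7.16%. With gaps under 50 kb joined in all lists, 8 members were higher in adipocytes than in preadipocytes, and 5 and 8 were below adipocytes in single- and double-knockdown cells. The share of all genes was not counted with gaps joined. With gaps left as called and without the Mmp cluster on chromosome 9, the counts of 9, 7 and 9 each became 2 of 37 genes, Mmp16 and Adamtsl1.

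Of the 9 bodies with a higher share in adipocytes, 6 (66.7%) were at least 25 points lower again in single-knockdown cells, against 45.4% of the 553 such genes overall. In double-knockdown cells 7 (77.8%) were, against 52.4%. Mmp16, Adamtsl1, Mmp13, Mmp3, Mmp8 and Mmp27 were lower in both knockdowns, and Mmp7 in double-knockdown cells alone. Mmp10 and Mmp20 stayed wholly within LADs in both. These comparisons share the control adipocyte list, and the 9 genes stand for 3 loci.

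**Figure D2:**
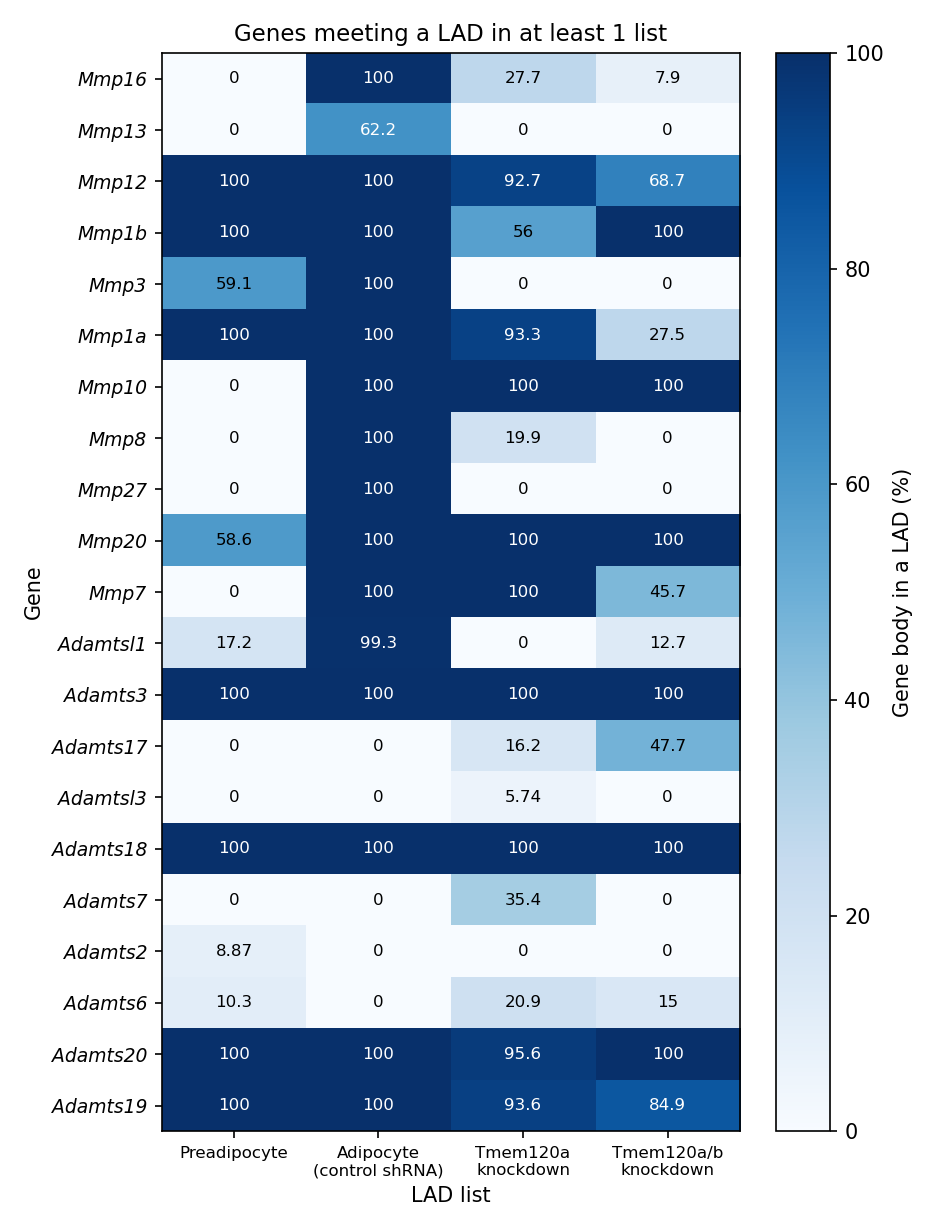
Percentage of the gene body in a LAD (colour and printed value) for the 21 genes that met a LAD in at least 1 list (rows), in each of the 4 lists (columns). The Mmp rows are at 100 in the adipocyte column except Mmp13 at 62.2, and Mmp3, Mmp13 and Mmp27 are at 0 in both knockdown columns.

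The cluster is formed by 10 of the Mmp genes and spans 427 kb (chr9:7272514-7699585, mm9), in the order Mmp13, Mmp12, Mmp1b, Mmp3, Mmp1a, Mmp10, Mmp8, Mmp27, Mmp20 and Mmp7. In preadipocytes 55.3% of the cluster lay in 3 LADs, with a gap of 133 kb. In control adipocytes 92.9% lay in 2 LADs, and the longest gap was 26.2 kb. In single-knockdown cells 69.1% lay in 4 LADs and in double-knockdown cells 60.2% lay in 4 LADs, with longest gaps of 60.5 kb and 60.6 kb. Adipocytes thus had the longest stretch of the cluster at the lamina, and 138 kb (32.3%) was in a LAD in all 4 lists. All of the preadipocyte LAD sequence in the cluster was also in adipocyte LADs, since the stretch shared by these lists made up the same 55.3%.

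The LAD borders are shown because they are where the calls begin and end, and each lies at a GATC, the sequence that Dam methylates. The bases are those of the plus strand of the reference genome NCBIM37 (mm9) around the ends of the adipocyte LADs at the Mmp cluster, Mmp16 and Adamtsl1. Capitals mark the GATC at the border.
Adamtsl1, left border, chr4:85702596-85702625: ggacagatccagaGATCtcatcttgctatt
Adamtsl1, right border, chr4:86161902-86161931: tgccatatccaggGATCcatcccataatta
Mmp cluster, left border, chr9:7276587-7276616: ctccctaggtctgGATCactccaaggaccc
Mmp cluster, right border, chr9:7582115-7582144: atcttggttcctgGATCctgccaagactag
Mmp cluster, second LAD, left border, chr9:7608359-7608388: caacccaactgctGATCcctggaaacacct
Mmp cluster, second LAD, right border, chr9:7705865-7705894: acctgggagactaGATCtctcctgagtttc
Mmp16, left border, chr4:16920880-16920909: ctgatgggctcgaGATCcggtgaggacagg
Mmp16, right border, chr4:19450742-19450771: ctcccaagtcctgGATCtctttcttgcctc

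All 43 LAD borders that fell inside a member's body lay at a GATC, and they came from 17 members. Over all borders the share was 98.3% in preadipocytes, 97.3% in adipocytes, 98.9% in single-knockdown cells and 99.1% in double-knockdown cells. Of the 43 borders 38 lay in introns. The 5 in exons were in Adamts20, Mmp13, Mmp1a, Mmp3 and Mmp7. The small Mmp genes hold few sites in all, with 19 GATC sites in Mmp13, 20 in Mmp8, 22 in Mmp7, 24 in Mmp10 and 30 in Mmp27. The much longer Mmp16 has 588 and Adamtsl1 881. Per kb, Mmp13 has 1.76 and Mmp8 1.99, whereas Mmp27 has 2.86, Mmp7 2.93 and Mmp10 3.04. Mmp16 has 2.21 per kb and Adamtsl1 2.35, and the median of all genes is 2.41.

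**Figure D3:**
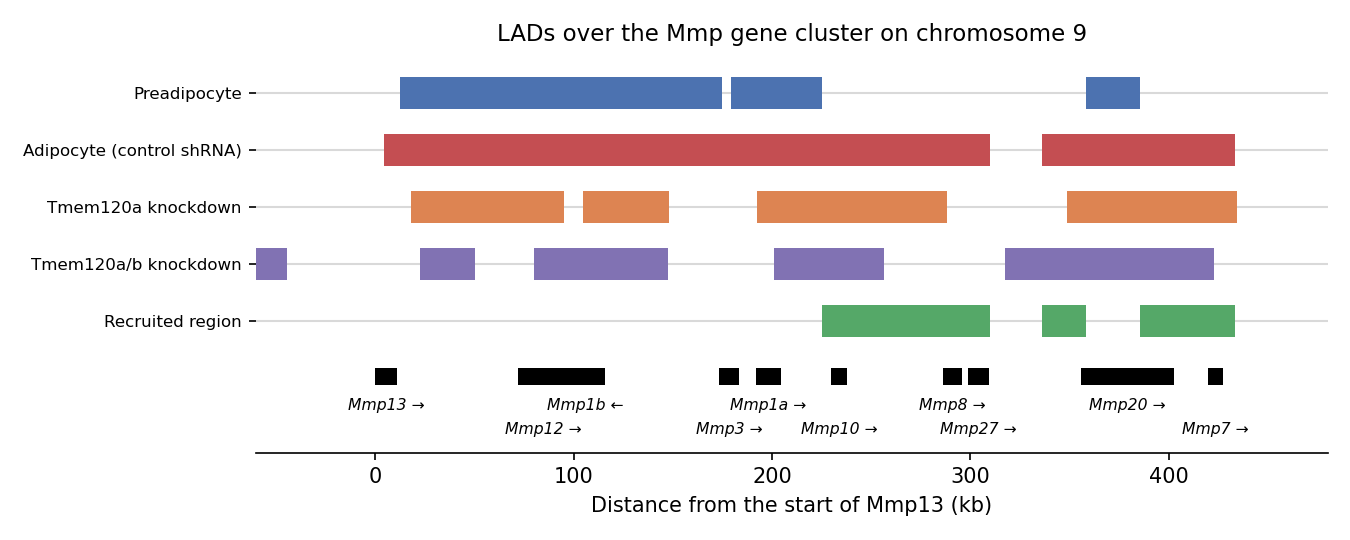
LADs of the 4 lists and recruited regions (rows, filled bars) over the Mmp gene cluster, with gene bodies in black and arrows for the direction of transcription; the x axis is the distance from the start of Mmp13 in kb. The adipocyte row has 2 long bars where the other lists have 3 or 4 pieces within the cluster.

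The genes of the cluster grouped here as collagenases divided into a pair in contact in all 4 lists and a pair that was not. Mmp1a (chr9:7464141-7476869) and Mmp1b (chr9:7368239-7388047), the mouse relatives of interstitial collagenase, lay wholly in LADs in preadipocytes and adipocytes. Mmp1a had 93.3% of the body inside a LAD in single-knockdown cells and 27.5% in double-knockdown cells. Mmp1b had 56% and 100%, so Mmp1b was below its adipocyte share in single-knockdown cells alone and Mmp1a in both, by more in double-knockdown cells. As near copies of each other, Mmp1a and Mmp1b could share reads, and the part of this in their calls was not tested. Mmp8 (chr9:7558429-7568486), neutrophil collagenase, was outside LADs in preadipocytes and wholly inside in adipocytes. It had 19.9% of the body inside a LAD in single-knockdown cells and none in double-knockdown cells.

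Mmp13 (chr9:7272514-7283333), collagenase 3, lay at the edge of the cluster and had 62.2% of the body inside a LAD in adipocytes and none in the other 3 lists. Its start site was 4.09 kb outside the adipocyte LAD. The stretch of adipocyte LAD that preadipocytes lacked at Mmp13 was 8.15 kb long and is not among the deposited recruited regions, the shortest of which is 8.07 kb.

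The stromelysins, broad proteases that also activate other MMPs, took different states although they lie 46.4 kb apart. Mmp3 (chr9:7445822-7455972), stromelysin 1, had 59.1% of its body in LADs in preadipocytes, 100% in adipocytes and none in either knockdown. Mmp10 (chr9:7502352-7510238), stromelysin 2, had none in preadipocytes and 100% in the other 3 lists. Its start site lay 4.67 kb outside a LAD in preadipocytes and 79.8 kb inside one in adipocytes. Mmp10 was therefore in the adipocyte state in both knockdowns, and Mmp3 was outside LADs in both.

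Mmp27 (chr9:7571396-7581885), an MMP of little-known function, was wholly in a LAD in adipocytes and wholly outside in the other 3 lists. It neighbours Mmp8, with which it shares 1 recruited region of 84.4 kb (chr9:7497688-7582130) that also holds Mmp10. Of that region 74.3% lay in a LAD in single-knockdown cells and 37.2% in double-knockdown cells. The part in LADs was at the Mmp10 end in both knockdowns, and the Mmp27 end was outside.

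Mmp7 (chr9:7692086-7699585), matrilysin, which lacks the hemopexin domain of most MMPs, was outside LADs in preadipocytes and wholly inside in adipocytes and in single-knockdown cells. In double-knockdown cells 45.7% of its body was in a LAD. Mmp20 (chr9:7628231-7674968), enamelysin of the developing tooth, had 58.6% in preadipocytes and 100% in the other 3 lists. The start site of Mmp20 was 2.47 kb outside a LAD in preadipocytes and inside by 19.9 kb in adipocytes. Recruited regions of 22.3 kb and 47.8 kb lie over its 2 ends, and the second extends across Mmp7. In single-knockdown cells 43.6% and 100% of these regions lay in LADs, and in double-knockdown cells 100% and 78.3%.

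Mmp12 (chr9:7344381-7369499), macrophage elastase, was wholly inside a LAD in preadipocytes and adipocytes. It had 92.7% of its body in LADs in single-knockdown cells and 68.7% in double-knockdown cells, where its start site was 7.87 kb outside. The annotated bodies of Mmp12 and Mmp1b overlap by 1.26 kb on opposite strands, so a LAD there counts for both.

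The promoters of the 6 genes whose start sites were in a LAD in adipocytes and not in preadipocytes are shown because these genes stand together in that comparison. They are the 250 bases before the annotated start in NCBIM37 (mm9), 5′ to 3′ on the plus strand, on which all 6 genes are transcribed. Capitals mark TGANTCA, an AP-1-like pattern with any base at N, and TATAAA, which was searched on both strands. The pattern is looser than the usual AP-1 motif. TGANTCA reads the same on both strands.
Mmp10, chr9:7502102-7502351: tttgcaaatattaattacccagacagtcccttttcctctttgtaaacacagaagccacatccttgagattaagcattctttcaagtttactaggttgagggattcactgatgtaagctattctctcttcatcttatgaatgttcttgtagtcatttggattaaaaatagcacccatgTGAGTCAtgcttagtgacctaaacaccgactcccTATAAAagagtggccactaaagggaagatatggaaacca
Mmp8, chr9:7558179-7558428: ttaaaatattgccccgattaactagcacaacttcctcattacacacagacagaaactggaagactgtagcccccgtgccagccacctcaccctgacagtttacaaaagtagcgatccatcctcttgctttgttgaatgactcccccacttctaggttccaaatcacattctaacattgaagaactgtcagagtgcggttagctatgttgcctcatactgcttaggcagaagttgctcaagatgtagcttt
Mmp27, chr9:7571146-7571395: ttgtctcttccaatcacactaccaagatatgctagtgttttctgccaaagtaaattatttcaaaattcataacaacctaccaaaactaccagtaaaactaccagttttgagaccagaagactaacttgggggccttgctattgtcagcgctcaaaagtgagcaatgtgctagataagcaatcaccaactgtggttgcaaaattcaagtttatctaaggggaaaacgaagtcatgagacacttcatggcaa
Mmp20, chr9:7627981-7628230: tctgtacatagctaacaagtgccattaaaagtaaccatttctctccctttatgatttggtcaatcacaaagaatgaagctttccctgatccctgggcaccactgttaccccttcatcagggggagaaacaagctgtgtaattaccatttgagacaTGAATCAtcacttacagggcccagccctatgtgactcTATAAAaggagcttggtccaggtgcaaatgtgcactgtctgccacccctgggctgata
Mmp7, chr9:7691836-7692085: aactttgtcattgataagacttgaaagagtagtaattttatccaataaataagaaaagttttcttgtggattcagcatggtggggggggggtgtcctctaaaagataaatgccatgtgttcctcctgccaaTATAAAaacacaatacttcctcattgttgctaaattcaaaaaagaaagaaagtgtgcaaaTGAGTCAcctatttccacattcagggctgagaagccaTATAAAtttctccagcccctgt
Mmp16, chr4:17779790-17780039: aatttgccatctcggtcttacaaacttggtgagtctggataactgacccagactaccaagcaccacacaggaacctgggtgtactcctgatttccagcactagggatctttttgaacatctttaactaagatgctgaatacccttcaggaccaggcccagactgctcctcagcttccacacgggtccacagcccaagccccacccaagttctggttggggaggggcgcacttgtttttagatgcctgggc

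The TGANTCA pattern began at position -73 in Mmp10, -95 in Mmp20 and -59 in Mmp7, counted back from the start site. It read TGAGTCA in Mmp10 and Mmp7 and TGAATCA in Mmp20. The TATAAA nearest the start began at -39 in Mmp10, -58 in Mmp20 and -22 in Mmp7. Neither motif was in these windows of Mmp8, Mmp27 and Mmp16. Over the cluster 7 of 10 promoters (70%) held TGANTCA and 7 (70%) held TATAAA. Among the 47 members the numbers were 8 (17%) and 13 (27.7%), and among 22362 promoters of the same length 6.01% and 12.3% held them. The cluster promoters with TGANTCA belong to Mmp13, Mmp1b, Mmp3, Mmp1a, Mmp10, Mmp20 and Mmp7, whose bodies ranged in double-knockdown cells from wholly outside to wholly inside LADs.

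Mmp16 (chr4:17780040-18046292), which encodes a membrane-type MMP that activates the precursor of Mmp2, is the only Mmp outside the cluster that met a LAD. Its 266 kb were outside LADs in preadipocytes, wholly inside in adipocytes, at 27.7% in single-knockdown cells and at 7.9% in double-knockdown cells. Preadipocyte LADs ended 37.4 kb before the gene and began again 10.5 kb after it. In adipocytes the gene lay inside a single LAD of 2.53 Mb (chr4:16920896-19450757), of which 47.7% was in preadipocyte LADs. The recruited region over the gene is 314 kb long (chr4:17742644-18056771), and 23.5% of it was in a LAD in single-knockdown cells and 11.6% in double-knockdown cells.

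The contact of Mmp16 in the 2 knockdown lists overlapped in part. Single-knockdown cells had LADs of 51.3 kb and 22.5 kb within the gene and double-knockdown cells 1 of 21 kb. They shared 19 kb, which is 90.5% of the LAD of double-knockdown cells and part of the first LAD of single-knockdown cells. The LAD of 22.5 kb had no counterpart in double-knockdown cells.

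Adamtsl1 (chr4:85699819-86074289), an ADAMTS-like matrix protein, is the longest member at 374 kb. It had 17.2% of its body in LADs in preadipocytes, 99.3% in adipocytes, none in single-knockdown cells and 12.7% in double-knockdown cells. The adipocyte LAD, of 459 kb, began 2.79 kb after the start site. Its start site was therefore outside LADs in all 4 lists although nearly the whole body was inside in adipocytes. Recruited regions of 166 kb, 98.1 kb and 79.2 kb cover 82% of the body. The first and second of these had no LAD in either knockdown, and the last had 58.6% in double-knockdown cells. No other protein-coding gene starts within 250 kb of the start of Adamtsl1, and the same holds for Mmp16.

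**Figure D4:**
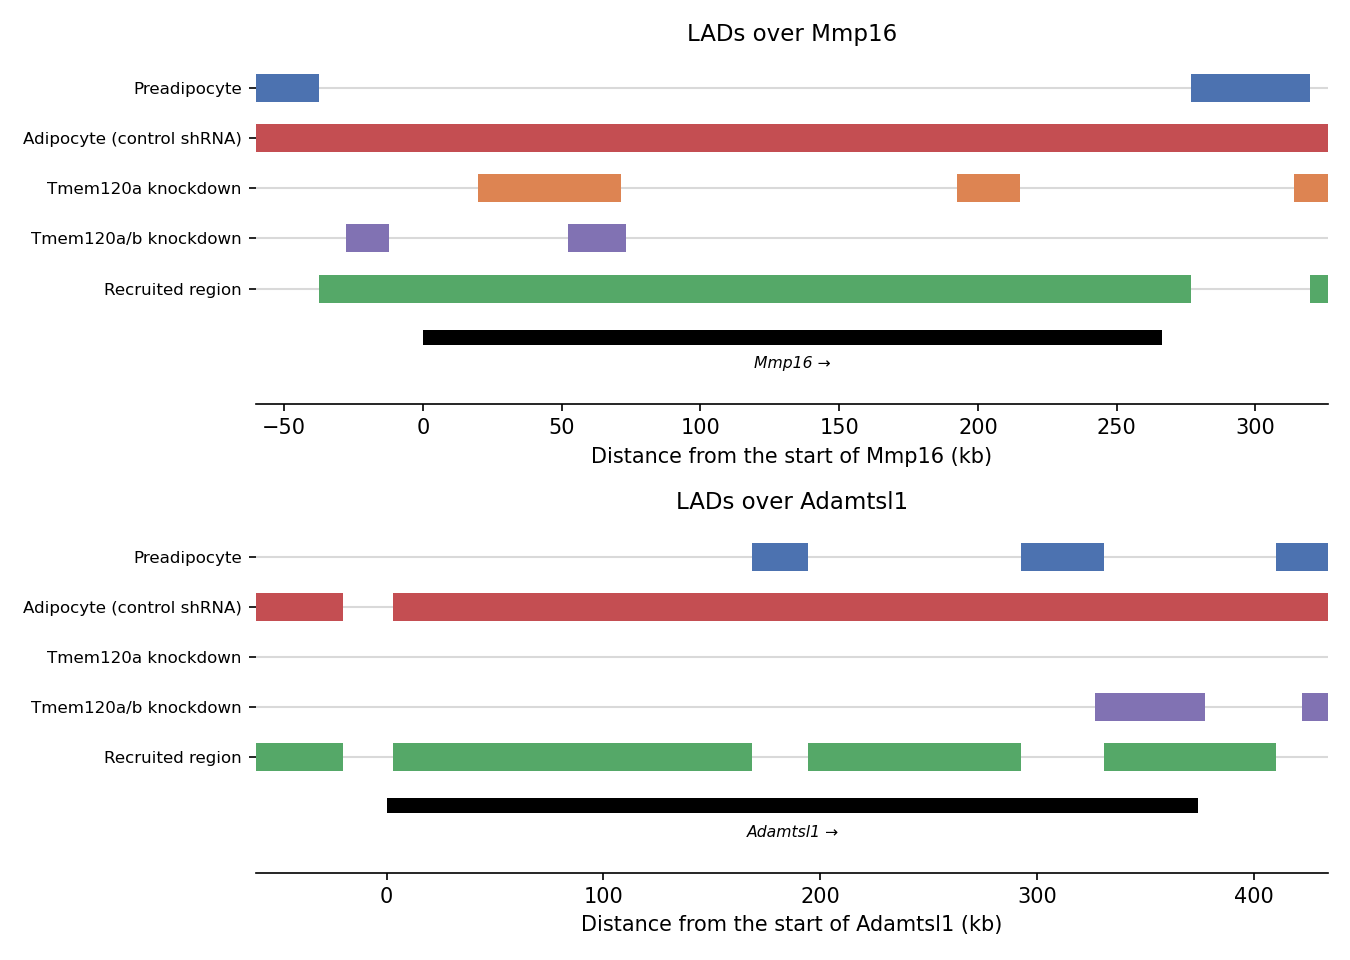
LADs of the 4 lists and recruited regions (rows, filled bars) over Mmp16 (upper panel) and Adamtsl1 (lower panel), with the gene body in black; the x axis is the distance from the start of each gene in kb. A single adipocyte LAD spans nearly all of either gene, and the knockdown rows hold short pieces or none.

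In all, 7 members (14.9%) met a recruited region, against 3.08% of all genes, at 3 loci. They were Mmp16, Adamtsl1, Mmp10, Mmp8, Mmp27, Mmp20 and Mmp7. One member (2.13%), Adamts2, met a released region, against 5.76%. The preadipocyte LAD of 21.3 kb in Adamts6, which adipocytes lacked, is not among the deposited released regions. The shortest of these is 8.04 kb.

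The procollagen N-propeptidases, which trim fibrillar procollagens before fibres form, were at 3 different states. Adamts3 (chr5:90102866-90312359) lay wholly in a LAD in all 4 lists, with its start site at least 66.2 kb from a border. Adamts2 (chr11:50415586-50621075) had 8.87% of its body, at the far end from the start site, in a preadipocyte LAD that was absent from the other lists. That stretch of 104 kb (chr11:50602848-50707257) is a released region and had no LAD in either knockdown. Adamts14 met no LAD.

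Among the ADAMTS proteases that cut COMP, a cartilage matrix protein, Adamts7 (chr9:90057816-90102909) met a LAD in single-knockdown cells alone, over 35.4% of its body and with the start site 5.28 kb inside. That LAD was 21.3 kb long. Adamts12 met no LAD, although it is 282 kb long.

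Of the proteoglycanases, which cleave aggrecan and versican, Adamts20 (chr15:94100594-94295849) alone met LADs. Its body was wholly inside in preadipocytes, in adipocytes and in double-knockdown cells, and 95.6% inside in single-knockdown cells, with a gap of 8.6 kb. A released region of 501 kb lies 31.5 kb beyond the gene, so it was the stretch next to Adamts20, not the gene, that was outside LADs in adipocytes. Adamts1, Adamts4, Adamts5, Adamts8, Adamts9 and Adamts15 met no LAD.

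Adamts18 (chr8:116221026-116372641), linked to eye development, lay wholly in a LAD in all 4 lists. With Adamts3 it made up 2 of 47 members (4.26%) in this state, against 14.3% of all genes. Adamts19 (chr18:58996418-59213332), known for a role in heart valves, was wholly inside a LAD in preadipocytes and adipocytes, with 93.6% and 84.9% in single- and double-knockdown cells. Counting any contact, 8 members (17%) met a LAD in all 4 lists, against 19.3%. They were Adamts3, Adamts18, Adamts19, Adamts20, Mmp12, Mmp1a, Mmp1b and Mmp20. The 4 Mmp genes lie in 1 cluster, outside which the number was 4. It was also 4 with LADs of at least 100 kb alone, for which the share of all genes was not counted.

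Adamts6 (chr13:105077953-105284843), a protease of the fibrillin matrix, had a LAD in 3 lists, but in 3 places. Preadipocytes had 10.3% of the body in a LAD of 21.3 kb, single-knockdown cells 20.9% in one of 43.3 kb and double-knockdown cells 15% in one of 31 kb. No base was shared between any pair of these, and adipocytes had none. A count of contact over the gene body would read this as a LAD lost in adipocytes and present in both knockdowns, although the positions differ.

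Adamts17 (chr7:73984621-74297511), mutated in a syndrome of short stature and lens defects, met LADs in the knockdown lists alone. The LAD was 50.8 kb (16.2% of the body) in single-knockdown cells and 149 kb (47.7%) in double-knockdown cells, and 46.8 kb was common to both. Adamtsl3 (chr7:89484204-89762960) had 5.74% of the body inside a LAD in single-knockdown cells alone.

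Counted by contact of the body, 4 members (8.51%) met a LAD in single-knockdown cells and not in control adipocytes, against 6.13% of all genes. They were Adamts17, Adamtsl3, Adamts7 and Adamts6. The 4 that met a LAD in adipocytes and not in single-knockdown cells (8.51%, against 1.95%) were Adamtsl1, Mmp13, Mmp3 and Mmp27. For double-knockdown cells 2 members (4.26%, against 8.36%), Adamts17 and Adamts6, were in a LAD in the knockdown alone. The 4 in a LAD in adipocytes alone (8.51%, against 2.10%) were Mmp13, Mmp3, Mmp8 and Mmp27, all in the cluster. These counts depend on how contact is defined. With at least 50% of the body required, or with LADs of at least 100 kb alone, 0 members had contact in single-knockdown cells and not in adipocytes. With at least 50% of the body required, 0 members had contact in double-knockdown cells alone and 8 in adipocytes alone. With LADs of at least 100 kb, 3 members had contact in double-knockdown cells and not in adipocytes. With LADs of at least 100 kb, 10 members had contact in adipocytes and not in single-knockdown cells, and 10 likewise for double-knockdown cells. With gaps joined, 3 and 4 members did. The share of all genes was not counted under these alternatives, so these numbers cannot be read as particular to the members. A cut on length bears more on the knockdown lists, with median LADs of 59.1 kb and 60.7 kb against 103 kb in adipocytes.

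The other 26 members (55.3%) met no LAD in any list, against 63.7% of all genes. They include both gelatinases, Mmp2 and Mmp9, which digest denatured collagen and basement membrane, and 5 of the 6 membrane-type MMPs. These were Mmp14, a pericellular collagenase, Mmp15, Mmp24 and the lipid-anchored Mmp17 and Mmp25. Mmp11, Mmp19, Mmp21, Mmp23 and Mmp28 were also outside, as were Adamts13, which cuts von Willebrand factor, Adamts10, which is tied to the fibrillin matrix, and Adamts16. Of the ADAMTS-like proteins, Adamtsl2 and Adamtsl4, linked to fibrillin microfibrils, and Adamtsl5 met none.

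The start sites of these 26 genes lay at a median of 371 kb from a LAD border in preadipocytes, 526 kb in adipocytes, 242 kb in single-knockdown cells and 410 kb in double-knockdown cells. For all genes in no list the medians were 468 kb, 636 kb, 314 kb and 269 kb. Adamts16 was nearest in every list, at 50.2 kb, 24.2 kb, 23.4 kb and 14.4 kb, and the LAD sequence nearest to it in adipocytes was a recruited region of 26 kb. Within 100 kb there were 2 (7.69%), 1 (3.85%), 2 (7.69%) and 6 (23.1%) of the 26 genes. Among all genes in no list the shares were 16.4%, 10.8%, 20.6% and 23.9%, so the number in double-knockdown cells was near that share and the others were below it. The 6 in double-knockdown cells were Adamts16, Mmp19, Mmp17, Adamts10, Mmp21 and Mmp2. Mmp19 was at 31.5 kb there and at 213 kb or more in the other lists.

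**Figure D5:**
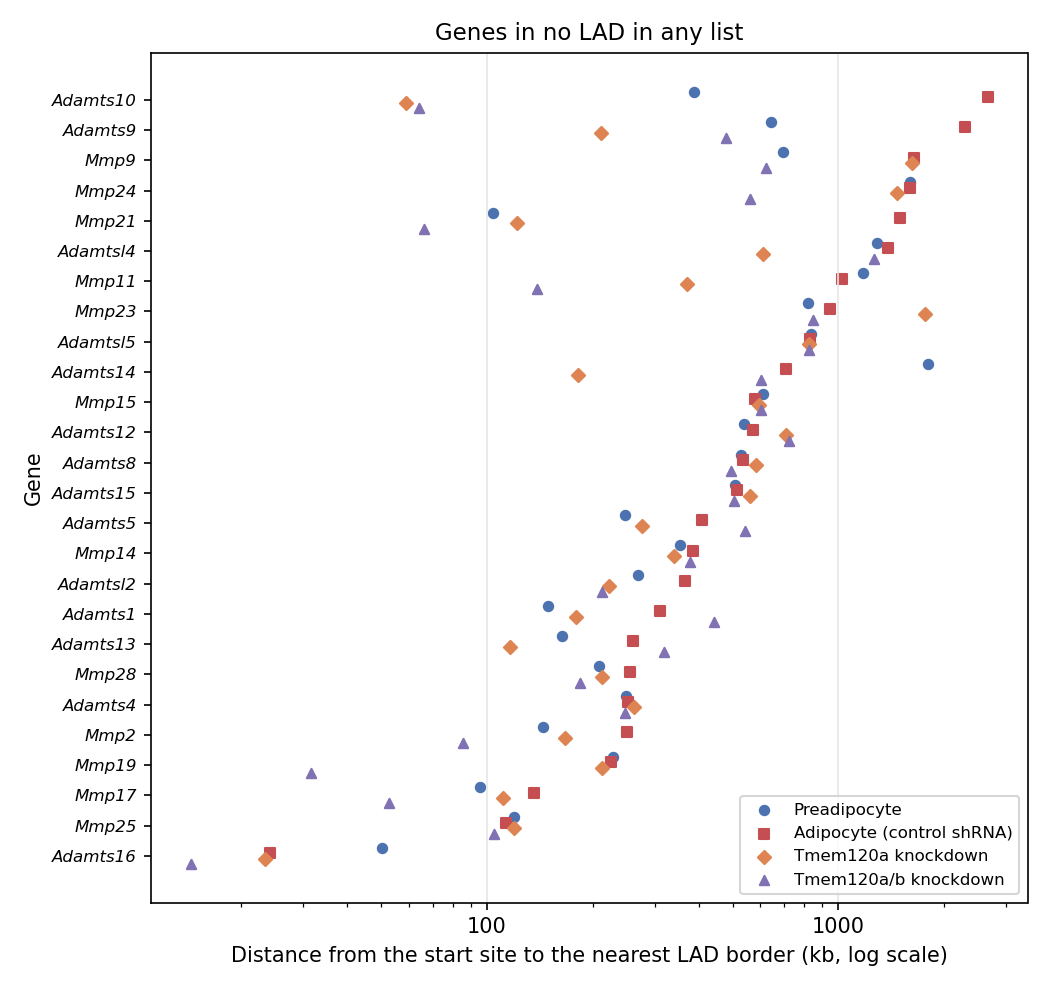
Distance from the start site to the nearest LAD border in kb (x axis, log scale) for the 26 genes (rows) in no LAD in any list, with 1 symbol for each of the 4 LAD lists. Adamts16 is nearest, between 14.4 and 50.2 kb, and Adamts10 is farthest in adipocytes at 2659 kb.

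By family, the higher count in adipocytes than in preadipocytes came from the Mmp genes. Of 23 Mmp genes 5 met a LAD in preadipocytes, 11 in adipocytes, 8 in single-knockdown cells and 7 in double-knockdown cells. Outside the cluster these numbers were 0, 1, 1 and 1 of 13. Of 19 Adamts genes 6, 4, 7 and 6 did, and of 5 Adamtsl genes 1 in each list. The Adamts genes are longer, at a median of 114 kb, than the Mmp genes at 14.7 kb and all genes at 15.4 kb.

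Outside the cluster, contact was found mainly in the longest members. Of the 13 members of at least 100 kb, 10 (76.9%) met a LAD in at least 1 list, against 61.2% of all genes of that length. Adamts9, Adamts12 and Adamts16 were the 3 that did not. Of all 19 members under 20 kb, 8 (42.1%) met one, against 35.3% of all such genes. Between 20 and 100 kb 3 of 15 (20%) did, against 29.8%. Outside the cluster the numbers were 0 of 11 under 20 kb and 1 of 13 (7.69%) between 20 and 100 kb. The shares of all genes had no clusters taken out. GC content of the body had a median of 50.1% for members in no list, 41% for those in some lists and 40.8% for those in all 4. For all genes the medians were 47.8%, 43.8% and 41.5%. Other gene starts within 250 kb numbered a median of 12.5, 7 and 6.5 for the members in the same order, and 9, 5 and 7 for all genes.

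The partners of these proteases were also counted. Of 23 inhibitors, activators, substrates and relatives, 2 (8.70%) met a LAD in preadipocytes and 3 (13%) in each other list, against 26.2%, 23.3%, 27.5% and 29.5% of all genes. In no list were 19 (82.6%), against 63.7%, so being outside LADs was the usual state of genes in general too. The 4 Timp inhibitors and Reck, which block MMPs, and the activators Furin, Plg, Plau and Plat met none. A2m, a plasma protein that traps proteases, had 85% of the body inside a LAD in preadipocytes and 100% in the other lists. Fbn2, a fibrillin, had 61.5% in preadipocytes, 65.4% in adipocytes, 31.7% in single-knockdown cells and 12.3% in double-knockdown cells. Vwf, the substrate of Adamts13, had 0%, 2.15%, 31.5% and 0% in the same order, and Acan, a substrate of the proteoglycanases, had 11.8% in double-knockdown cells alone.

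The related Adam genes encode membrane-bound disintegrin metalloproteases. Of 32 Adam genes 15 (46.9%) met a LAD in preadipocytes and 15 (46.9%) in adipocytes, against 26.2% and 23.3% of all genes. In single-knockdown cells 13 (40.6%) did, against 27.5%, and in double-knockdown cells 16 (50%), against 29.5%. Those in all 4 lists numbered 10 (31.2%, against 19.3%) and those in none 14 (43.8%, against 63.7%). Several Adam genes in contact are neighbours on chromosome 8. Among them are Adam18, Adam3 and Adam5, Adam24, Adam25 and Adam39, and Adam26b, Adam26a and Adam34. The loci of the Adam genes were not counted, so their shares may stand for few loci. No difference between the families was tested.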

How the data were processed

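LaminB1-DamID was measured in 8 libraries, 1 Dam and 1 LaminB1-Dam in each of 4 conditions. The authors mapped reads to mm9 with BWA, took the log2 ratio of LaminB1-Dam to Dam per DpnI fragment and called LADs by segmentation with DNAcopy. The deposited lists hold positions alone and were assigned to conditions by the abbreviation they carry. How the differential regions were selected is not given in full in the sources used here. No column of another sample was present.

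Lists were read as counting from 0 and starts are printed counting from 1. Borders were compared with GATC sites of NCBIM37, from 4 bases before to 1 after the border. Genes came from GENCODE vM1 (22367 protein-coding genes, 21 chromosomes), with the body from first to last annotated base. Contact means at least 1 bp. Every member is named, with values in all lists for those in a LAD in some list. Thsd4 has more than 1 annotation entry and was left out of the partner list. Members and lists were chosen with earlier results of these data known. Interval arithmetic, in Python 3.11.15 with numpy 2.4.6, was tested on simulated data (2000 runs, 0 differences), and plots used matplotlib 3.10.9. Alternatives changed overlap, LAD length, gaps, symbol rule, locus counting, body, start site and point threshold.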

Additional observations from a re-analysis of the deposited data

How the results depend on the processing

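Of 152 alternative values for 24 counts, 100 lay within 1.5 times the reported count and 52 did not. The counts are small and several genes share 1 cluster, and the alternatives outside the cluster and those for the point changes were chosen after seeing the data. Depth and LAD strength are unknown, so no error can be set against these ranges. No paired analysis was possible because each condition has 1 library of each kind and no value comes from a test.

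With neighbours within 100 kb counted as 1 locus, and the locus given the state of its first gene in the genome (Mmp13 for the Mmp cluster), bodies in a LAD numbered 7 in preadipocytes, 7 in adipocytes, 9 in single-knockdown cells and 8 in double-knockdown cells, and start sites 4, 5, 5 and 4. By the same first gene, loci in all 4 lists numbered 4, in a LAD in adipocytes and not in preadipocytes 2, in a recruited region 2, and with contact in adipocytes but not in single- or double-knockdown cells 2 and 1. If any gene of a locus may give it contact, bodies stand for 8, 7, 10 and 9 loci, start sites for 5, 6, 6 and 5, contact in all 4 lists for 5 and recruited regions for 3. The Mmp cluster is then in contact in every list. With the 37 genes outside the chromosome 9 cluster, bodies numbered 7, 6, 9 and 8 and start sites 4, 5, 5 and 4. Genes in all 4 lists numbered 4, those in adipocytes and not in preadipocytes 1, those in recruited regions 2, and those in contact in adipocytes but not in the knockdowns 1 and 0. At least 25 points higher in adipocytes were 2, and lower in the knockdowns 2 and 2.

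The share of all genes was not counted under the alternatives that follow. With LADs of at least 100 kb, bodies numbered 4 in single-knockdown cells and 7 in double-knockdown cells, and start sites 4 in single-knockdown cells. In all 4 lists the number was 4, in preadipocytes and not in adipocytes 1, with contact in single-knockdown cells and not in adipocytes 0, and with the reverse 10 in either knockdown. At least 25 points above adipocytes were 0 in single-knockdown cells and 3 in double-knockdown cells. With at least 50% of the body required, bodies numbered 10 in single-knockdown cells and 8 in double-knockdown cells, in preadipocytes and not in adipocytes 0, in released regions 0, with contact in a knockdown alone 0 in either, and with the reverse 8 in double-knockdown cells. With the body extended by 10 kb, 2 had contact in adipocytes and not in single-knockdown cells. At 10 points, 1 member was lower in adipocytes than in preadipocytes, and 3 and 2 were above adipocytes in the knockdowns; at 50 points these last numbers were 0 and 0.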
